A study of Mus musculus with 27 samples.

Results

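The Serpina1 genes of the mouse encode alpha-1 antitrypsin, the main inhibitor of neutrophil elastase in plasma. The members described here are Serpina1a, Serpina1b, Serpina1c, Serpina1d and Serpina1e, chosen by their gene symbols in the GENCODE M21 annotation, and they are 5 of the 43346 genes in the deposited table. Expression had been measured by RNA sequencing of polyadenylated RNA from liver hepatocytes of female mice, all 12 weeks old, with 3 libraries from each of 9 inbred strains. The reference strain C57BL/6J, the wild-derived PWK/PhJ, CAST/EiJ and WSB/EiJ, and the further laboratory strains NZO/HlLtJ, A/J, NOD/ShiLtJ, 129S1/SvImJ and DBA/2J were sampled, and the labels name no engineered allele and no treatment. The study set histone marks, DNA methylation and gene expression of these strains side by side, and only the expression values are used here. The labels call the 3 libraries of a strain biological replicates but name no animals, so p-values measure the spread between these samples.

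Alpha-1 antitrypsin is a serpin, a protease inhibitor that offers an exposed reactive-centre loop as bait. The target protease cuts the loop, and the serpin then springs into a new shape and holds the protease in an inactive complex. Hepatocytes make most of the plasma protein and secrete it through the endoplasmic reticulum and Golgi. Where humans carry a single active gene, mice carry several near-identical copies in tandem, and the number of copies is known to differ between inbred strains.

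In the C57BL/6J reference genome (build GRCm38) the members lie in a row on the minus strand of chromosome 12, with pseudogenes of the same family between them. From low to high coordinate, the gene spans are chr12:103728156-103830373 for Serpina1b, chr12:103763594-103773592 for Serpina1d, chr12:103853589-103863562 for Serpina1a, chr12:103894926-103904887 for Serpina1c and chr12:103946931-103958975 for Serpina1e. The annotated span of Serpina1b reaches across the whole of Serpina1d. Each main transcript has 5 exons, 4 of them coding, and each reading frame is 413 codons long. The coding sequences were 96.3% to 98.5% identical between members, with no gap, and 86 of their 1239 bases (6.94%) differed in at least 1 member. Serpina1a and Serpina1c were the closest pair, with 19 differences.

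The differences were not spread evenly along the frame. A window of 60 bases at coding bases 1102 to 1161, counted from the start codon, held 18 differing columns, where the median window held 4. It encodes the reactive-centre loop, and is shown because the members differ most in the part that meets the protease. Capitals mark the columns in which the 5 members are not all the same, written 5′ to 3′ on the coding strand.
Serpina1a, chr12:103853756-103853815: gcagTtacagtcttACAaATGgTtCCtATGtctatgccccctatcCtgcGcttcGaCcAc
Serpina1b, chr12:103728323-103728382: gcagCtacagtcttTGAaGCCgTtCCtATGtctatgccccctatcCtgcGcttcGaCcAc
Serpina1c, chr12:103895093-103895152: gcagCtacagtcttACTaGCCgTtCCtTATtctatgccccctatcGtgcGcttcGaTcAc
Serpina1d, chr12:103763761-103763820: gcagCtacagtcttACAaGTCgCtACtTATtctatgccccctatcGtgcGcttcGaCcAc
Serpina1e, chr12:103947099-103947158: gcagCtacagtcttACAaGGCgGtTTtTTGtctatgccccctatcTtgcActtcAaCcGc
The codon just before the shared run tctatgccc specifies the residue after which a target protease cuts, which largely sets which protease is inhibited. This codon, number 377 of the frame, read ATG in Serpina1a and Serpina1b, TAT in Serpina1c and Serpina1d, and TTG in Serpina1e. Within the window Serpina1c and Serpina1d differed from each other at 5 bases, and Serpina1e differed from the other 4 members at 10 to 12.

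The promoters were alike too. All 5 members were found in the RefSeq promoter table (build GRCm38.p6, 250 bases before to 50 after each start), and their pairwise identity was 91.4% to 97.6%. Serpina1f, a neighbour of the same family, had 0 counts in all 27 libraries. The coding and promoter sequences are those of C57BL/6J, and no sequence of the other strains was used here.

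Because the members are so alike, short reads cannot always be assigned to 1 of them. The estimated counts of all 5 members were not whole numbers in 27 of 27 libraries. In the whole table, unexpressed genes included, 11.1% of the values differed from a whole number by more than 1e-06. The share of a member's main transcript that is found in no other annotated transcript gives a scale for this. Among windows of 75 bases, 75.8% of those of Serpina1e were its own, 67.1% of those of Serpina1b and 62.9% of those of Serpina1d. The shares were 30.4% for Serpina1a and 26.4% for Serpina1c, and 62.8% of the Serpina1a windows also occurred in Serpina1c. Read length, the counting program and whether reads were matched to the C57BL/6J genome or to each strain's own are not given in the sources used here. Levels of single members, above all of Serpina1a and Serpina1c, therefore depend on how reads were divided among the 5, which does not alter their sum. Windows also occur in genes outside the 5: the pseudogene Gm8893, described below, shares 28.3% of those of Serpina1a. Division of reads with such genes can alter the sum.

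**Figure D1:**
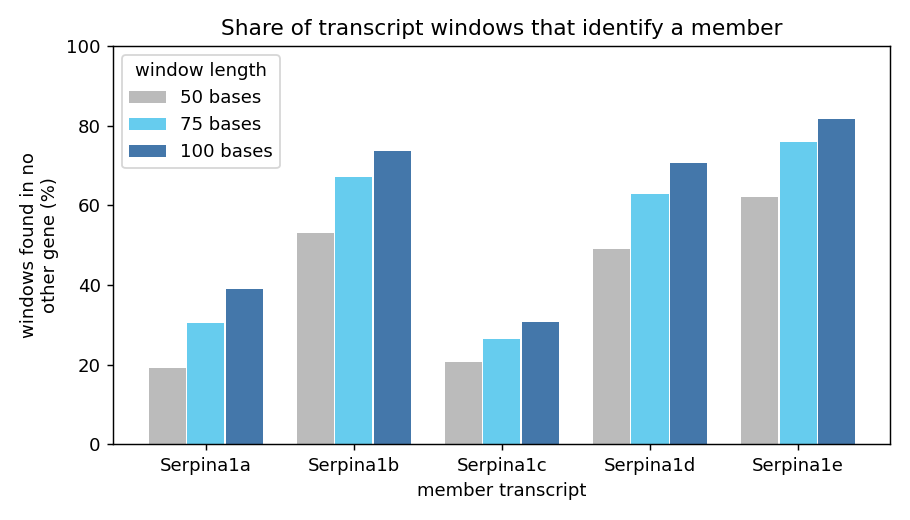
Share of each member's main transcript windows (y axis, percent) that occur in no other annotated gene, for windows of 50, 75 and 100 bases (bars), by member (x axis). Serpina1a and Serpina1c stay under 40% at every length shown, and Serpina1b, Serpina1d and Serpina1e lie above them at each length.

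Library totals ran from 17015956 to 35078511 estimated counts. Levels below are in CPM, counts per 1e+06 scaled by edgeR's TMM factors, which ran from 0.722 to 1.23. Hepatocyte markers were abundant in every strain: the summed CPM of 10 of them averaged 131628 in CAST/EiJ to 315800 in A/J. Strain means of the summed markers of other cells were 61.7 to 254 CPM for 11 Kupffer cell markers, 77.9 to 382 for 10 endothelial markers and 41.6 to 154 for 10 stellate cell markers. They were 4.34 to 24.1 CPM for 7 erythroid, 0.426 to 2.26 for 11 neutrophil and 0.206 to 1.71 for 10 lymphocyte markers. Those sums also differed between strains, and their part in the results was not tested. In bulk RNA, fewer cells of a type and less RNA per cell cannot be told apart.

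Together the members made up a large part of the hepatocyte messenger pool. Their summed counts were 1.41% to 3.72% of a library, with a mean of 2.52% ± 0.619 (SD, n = 27). In 13 of the 27 libraries Alb, the albumin gene, was the only gene with more counts than the family sum. A/J had the highest mean sum, 40486 CPM, from libraries at 36743, 33146 and 51568 CPM. WSB/EiJ followed with 36855, 38443 and 39638 CPM. At the other end 129S1/SvImJ had 13632, 12770.4 and 14418 CPM, a mean of 13607, and CAST/EiJ had 17561, 13957 and 12334 CPM, a mean of 14617. On this scale every A/J and WSB/EiJ library lay above every library of the other 7 strains, and every 129S1/SvImJ and CAST/EiJ library lay below every library of the rest. As a percent of the library, without TMM factors, these groups overlapped: NOD/ShiLtJ reached 3.18%, above the A/J library at 2.98% and the WSB/EiJ library at 3.01%, and CAST/EiJ and PWK/PhJ met at 2.03%. In between, strain means were 28742 CPM in NOD/ShiLtJ, 28581 in C57BL/6J, 26683 in DBA/2J, 23158 in NZO/HlLtJ and 20666 in PWK/PhJ.

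The family sum differed among strains, with a 2.98-fold range of strain means (edgeR quasi-likelihood F test, adjusted p = 1.07e-06), in a table where 74.2% of the tested genes did. By that test's F statistic it ranked 1743 of 14478. Of the 36 pairs of strains, 19 differed in the sum, where 23.4% of all gene-by-pair tests were called. Without TMM factors, which moved the median log2 difference over all genes by up to 0.57 in a pair, 19 pairs were called and 17 of them were shared. NZO/HlLtJ against A/J (log2 difference -0.81 with TMM and -0.24 without) and WSB/EiJ against NZO/HlLtJ (0.73 and 0.15) lost their calls. The contrast of A/J and 129S1/SvImJ was 1.57 ± 0.199 on the log2 scale (SE, n = 3 libraries each, edgeR adjusted p = 3.7e-06), in a pair of strains where 28.6% of genes were called. Against C57BL/6J the sum was lower in 129S1/SvImJ (log2 difference -1.07 ± 0.197, edgeR adjusted p = 0.000419) and in CAST/EiJ (-0.97 ± 0.196, edgeR adjusted p = 0.000432), and the other 6 contrasts did not pass. Down the order of strain means, 1 of 8 neighbouring pairs differed, PWK/PhJ and CAST/EiJ, at an adjusted p of 0.049995. The hepatocyte marker sum was likewise highest in A/J and WSB/EiJ. Alb made up most of it in A/J, at 229352 CPM. Of the other markers on the list, some were highest in A/J and some were lowest there. Set against Alb in the same library, the family gave 13.5 counts per 100 Alb counts in 129S1/SvImJ, 17.5 in A/J, 20.6 in WSB/EiJ and 28.5 in NOD/ShiLtJ, so the order on this ratio was a different one.

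**Figure D2:**
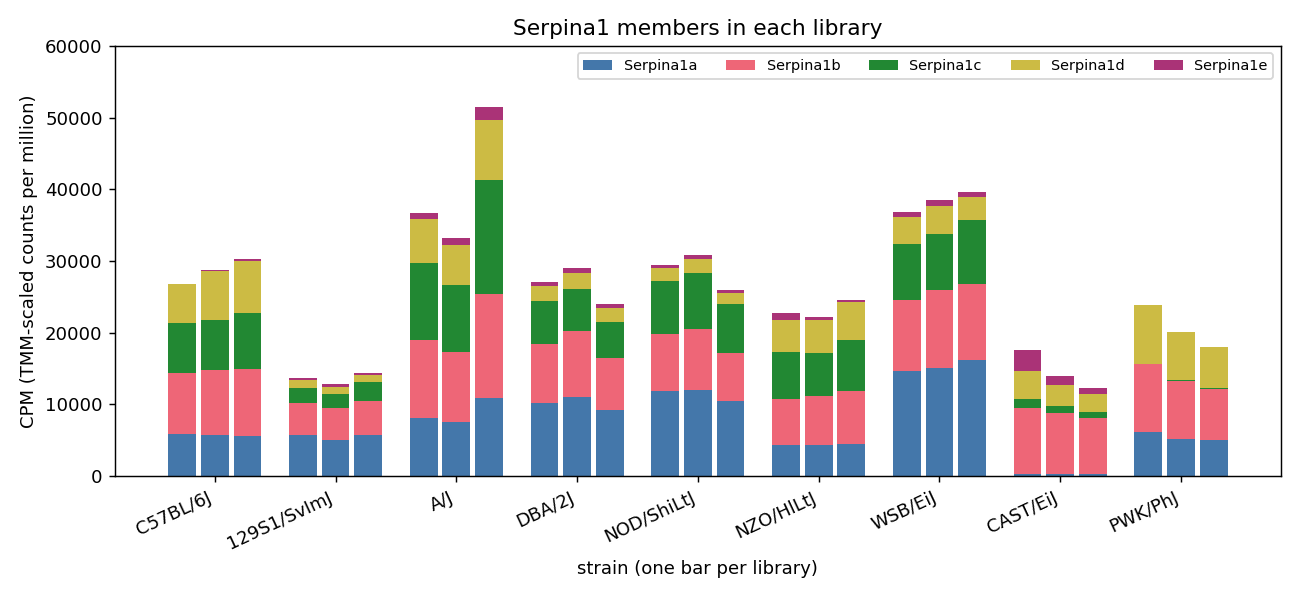
CPM of the 5 members stacked in each of the 27 libraries (y axis, linear from 0), grouped by strain (x axis). The stack is tallest in A/J and WSB/EiJ and shortest in 129S1/SvImJ and CAST/EiJ; Serpina1a is nearly missing from the CAST/EiJ stacks, and Serpina1c from those of PWK/PhJ.

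Single members differed between strains as well. All 5 members differed among strains in edgeR's test, where 74.2% of tested genes were called, and fold ranges of strain means ran from 2.6 to 216. Counting each member in each of the 36 strain pairs, 117 of 180 tests were called (65%), where the share over all genes was 23.4%. The libraries of a pair did not overlap in 142 of the 180, where the share over all genes was 38.1%. Against C57BL/6J, 23 of 40 tests were called, where the share over all genes was 20.1%. Of these 12 were higher and 11 lower, where the shares were 9.52% and 10.6%. Without TMM factors 112 of the 180 were called, 103 of them in common, and 2 of the 117 turned direction, CAST/EiJ against A/J in Serpina1b and NZO/HlLtJ against A/J in Serpina1d. These tests share their libraries and some of their reads, so the 180 are not independent.

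Serpina1a, with the ATG codon in its loop, was low in a single strain. CAST/EiJ libraries held 340.2, 293 and 236 CPM, against 4258 CPM or more in each of the other 24 libraries. The highest strain, WSB/EiJ, held 14601, 15010.1 and 16131 CPM, and NOD/ShiLtJ, DBA/2J and A/J followed with means of 11467, 10113 and 8838 CPM. C57BL/6J held 5819, 5736 and 5609.9 CPM, close to 129S1/SvImJ and PWK/PhJ with means of 5488 and 5398, and NZO/HlLtJ averaged 4317. The CAST/EiJ libraries did not overlap with those of any other strain. WSB/EiJ was 5.72 ± 0.209 above CAST/EiJ on the log2 scale (SE, edgeR adjusted p = 4.42e-16, in a pair where 36.6% of genes were called), a 52.7-fold range of means, and Serpina1a ranked 133 of 14482 tested genes by F (edgeR adjusted p = 9.59e-15). In all, 26 of 36 pairs differed. Against C57BL/6J it was lower in CAST/EiJ (log2 difference -4.30 ± 0.195) and higher in WSB/EiJ (1.41 ± 0.174), NOD/ShiLtJ (1.00 ± 0.172), DBA/2J (0.82 ± 0.172) and A/J (0.63 ± 0.171). The A/J call is the least secure of these: without A/J replicate 3, or without any 1 of the C57BL/6J libraries, it was not called (edgeR adjusted p 0.0538 to 0.188 over the 7 alternatives that lost it).

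Serpina1b, which shares the ATG codon, was the steadiest member. Its 27 libraries lay between 4385 and 14563 CPM, and strain means spanned 2.6-fold. 129S1/SvImJ stood apart, with 4385, 4512 and 4662 CPM, below every library of the other 8 strains, where the lowest held 6458 CPM. A/J was highest in CPM with 10886, 9739.6 and 14563 CPM, and C57BL/6J held 8491, 9096 and 9264. The contrast between A/J and 129S1/SvImJ was 1.38 ± 0.174 on the log2 scale (SE, edgeR adjusted p = 3.64e-06). Among strains the test gave an edgeR adjusted p of 3.39e-05 and rank 2992 by F. Of 36 pairs 13 differed, and 8 of these involved 129S1/SvImJ, while 4 more were A/J above NOD/ShiLtJ, NZO/HlLtJ, CAST/EiJ and PWK/PhJ. Without TMM factors the 8 with 129S1/SvImJ kept their calls and these 4 lost them, as did the remaining pair, WSB/EiJ above NZO/HlLtJ (0.60 with TMM and 0.03 without on the log2 scale). The edgeR adjusted p of those 4 without TMM was 0.103, 0.116, 0.742 and 0.175, in the order named. On that scale CAST/EiJ, at 0.982% of the library, was above A/J at 0.952%, and its contrast with C57BL/6J was called (0.27 ± 0.103, edgeR adjusted p = 0.0383). Neighbours in the order from A/J down to NZO/HlLtJ did not pass. Against C57BL/6J, 129S1/SvImJ alone was called, at -0.99 ± 0.172 (edgeR adjusted p = 0.000242).

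Serpina1c, with TAT in the loop codon, varied most of the 5. In PWK/PhJ it was very low, with 68.8, 47.2 and 49.6 CPM, while A/J held 10726, 9271 and 15796 CPM. CAST/EiJ with 1227, 1002 and 794 CPM and 129S1/SvImJ with 2226, 1967 and 2652 were the next lowest, and the remaining 5 strains averaged 5626 CPM (DBA/2J) to 8161 (WSB/EiJ). The 3 low strains overlapped neither with each other nor with any other strain. Each step among them passed: DBA/2J over 129S1/SvImJ by 1.30, 129S1/SvImJ over CAST/EiJ by 1.18 and CAST/EiJ over PWK/PhJ by 4.19 on the log2 scale, in pairs where 14.6%, 25% and 34.1% of genes were called. The range of means was 216-fold (PWK/PhJ minus A/J -7.76 ± 0.275 on the log2 scale, edgeR adjusted p = 1.38e-16, 32.9% of genes called), and the gene ranked 92 of 14482 by F (edgeR adjusted p = 1.27e-15). With 25 of 36 pairs called, 11 were not, all of them within the 6 higher strains. Against C57BL/6J the contrasts were -7.05 ± 0.267 in PWK/PhJ, -2.86 ± 0.219 in CAST/EiJ, -1.68 ± 0.21 in 129S1/SvImJ and 0.71 ± 0.205 in A/J. The last of these lost its call without A/J replicate 3 and without any 1 of the C57BL/6J libraries, with an edgeR adjusted p of 0.055 to 0.237 over the 7 alternatives that lost it. An antisense transcript, B430119L08Rik, overlaps Serpina1c and reached at most 744 counts in a library, and whether counting used strand is not given in the sources used here.

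Serpina1d, which shares the TAT codon, was high in PWK/PhJ, where Serpina1c was lowest. PWK/PhJ libraries held 8148, 6712 and 5745 CPM, alongside A/J with 6219, 5635 and 8392 and C57BL/6J with 5374, 6816 and 7244. These 3 strains overlapped and did not differ in any pair. The lowest, 129S1/SvImJ, held 1014, 993 and 1084 CPM, under every other library, and NOD/ShiLtJ and DBA/2J averaged 1764 and 2039. NZO/HlLtJ, WSB/EiJ and CAST/EiJ lay between, with means of 4784, 3620.4 and 3098 CPM. PWK/PhJ exceeded 129S1/SvImJ by 2.74 ± 0.207 on the log2 scale (SE, edgeR adjusted p = 2.25e-10, 30.7% of genes called), 6.67-fold in means. This member differed in 29 of 36 pairs, the highest number of the 5, with an edgeR adjusted p of 7.29e-11 among strains. Against C57BL/6J 5 strains were lower and none was higher: 129S1/SvImJ (-2.65 ± 0.207), NOD/ShiLtJ (-1.88 ± 0.201), DBA/2J (-1.67 ± 0.199), CAST/EiJ (-1.06 ± 0.196) and WSB/EiJ (-0.84 ± 0.196).

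Serpina1e, with TTG in its loop codon and the greatest share of sequence of its own, was a minor member in most strains. CAST/EiJ held 2896, 1329.7 and 861 CPM, and A/J 849.6, 931 and 1912. C57BL/6J held 109, 98.8 and 157 CPM and PWK/PhJ 78.7, 26.9 and 51.4, both below every library of the other 7 strains. The middle strains averaged 760.1 CPM in WSB/EiJ, 638 in DBA/2J, 538 in NZO/HlLtJ, 514 in NOD/ShiLtJ and 286 in 129S1/SvImJ. CAST/EiJ and PWK/PhJ means differed 32.4-fold (PWK/PhJ minus CAST/EiJ -5.02 ± 0.488 on the log2 scale, edgeR adjusted p = 1.67e-08), and 24 of 36 pairs differed. The CAST/EiJ mean of 1696 CPM fell to 1096 without replicate 1, A/J then had the highest mean, and the fold range of strain means was 23.5. The NZO/HlLtJ mean of 538 CPM fell to 335 without replicate 1. C57BL/6J, the reference strain, differed from all 8 others. Of those, 7 were higher, by 1.23 ± 0.418 in 129S1/SvImJ up to 3.80 ± 0.46 in CAST/EiJ on the log2 scale (edgeR adjusted p = 0.0384 and 5.73e-07), and PWK/PhJ was lower, by -1.22 ± 0.419 (edgeR adjusted p = 0.034). The 129S1/SvImJ call was lost when any 1 of the 6 libraries was left out (edgeR adjusted p 0.057 to 0.134), and the PWK/PhJ call without C57BL/6J replicate 4, PWK/PhJ replicate 2 or PWK/PhJ replicate 3 (0.0856 to 0.169).

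Serpina1e also varied most between libraries of 1 strain. Its coefficient of variation was 65.6% in NZO/HlLtJ, with libraries at 944, 365 and 305 CPM, 62.8% in CAST/EiJ, 49.5% in PWK/PhJ and 48% in A/J. In 129S1/SvImJ and WSB/EiJ it was 2.44% and 5.14%. No other member exceeded 28.7%, the value of Serpina1c in A/J. The lowest of its estimated counts was 783. After strain means were removed, its log2 CPM correlated with that of the other members at 0.444 (Serpina1b) to 0.677 (Serpina1c) over 27 libraries. Among genes outside the family averaging at least 10 CPM the highest such correlations were those of Tpst2 (0.727), Zdhhc7 (0.712), Mad2l2 (0.661), Actn1 (0.656) and Gpr146 (0.647), a description of genes picked after their values were seen. No batch is named in the labels.

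**Figure D3:**
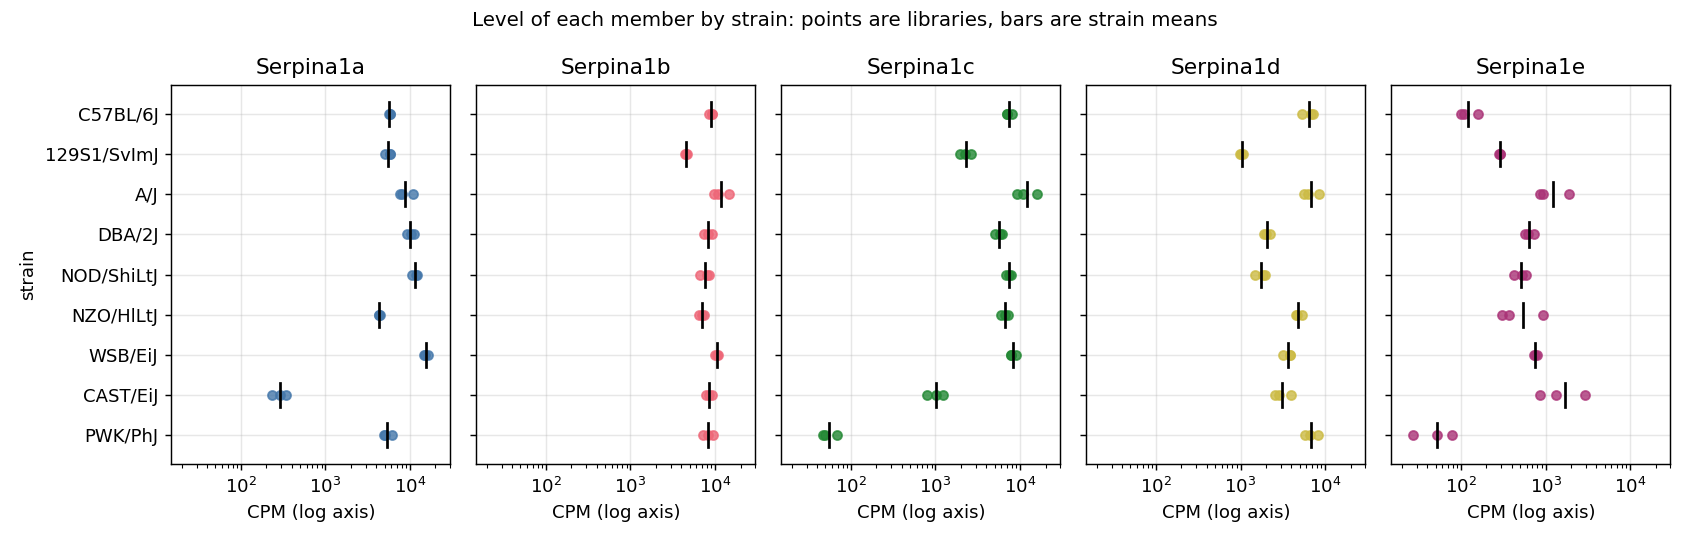
CPM of each member (x axis, log scale) in each library (points) with the strain mean (vertical bar), by strain (y axis). Serpina1a drops to a mean of 289 CPM in CAST/EiJ, Serpina1c to 55.2 in PWK/PhJ, Serpina1b stays within 2.6-fold over all strain means, and the points of Serpina1e spread widely in CAST/EiJ, NZO/HlLtJ, PWK/PhJ and A/J.

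Read strain by strain against C57BL/6J, each strain had a pattern over the members. In CAST/EiJ, Serpina1a, Serpina1c and Serpina1d were lower (3 of 5 members, where 19.7% of all genes were lower) and Serpina1e was higher (1 of 5, 18.4%), while Serpina1b did not pass (log2 difference -0.07 ± 0.171, edgeR adjusted p = 0.776) unless TMM factors were left out. In PWK/PhJ, Serpina1c and Serpina1e were lower (2 of 5, 13.7%) and none was higher (12.5%), with Serpina1a, Serpina1b and Serpina1d at -0.08 ± 0.170, -0.11 ± 0.171 and 0.08 ± 0.194. 129S1/SvImJ was lower in Serpina1b, Serpina1c and Serpina1d (3 of 5, 11.7%) and higher in Serpina1e (1 of 5, 9.2%), with Serpina1a at -0.06 ± 0.170. A/J was higher in Serpina1a, Serpina1c and Serpina1e (3 of 5, 3.81%) and lower in none (4.03%). NZO/HlLtJ was higher in Serpina1e (1 of 5, 13.2%) and lower in none (16.2%). The same 3 members moved in NOD/ShiLtJ, DBA/2J and WSB/EiJ, with Serpina1a and Serpina1e higher and Serpina1d lower in each. All genes were higher in 7.39%, 4.9% and 6.88% and lower in 8.51%, 4.16% and 6.76% of tests in those 3 strains. A contrast that did not pass does not show that levels were equal.

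**Figure D4:**
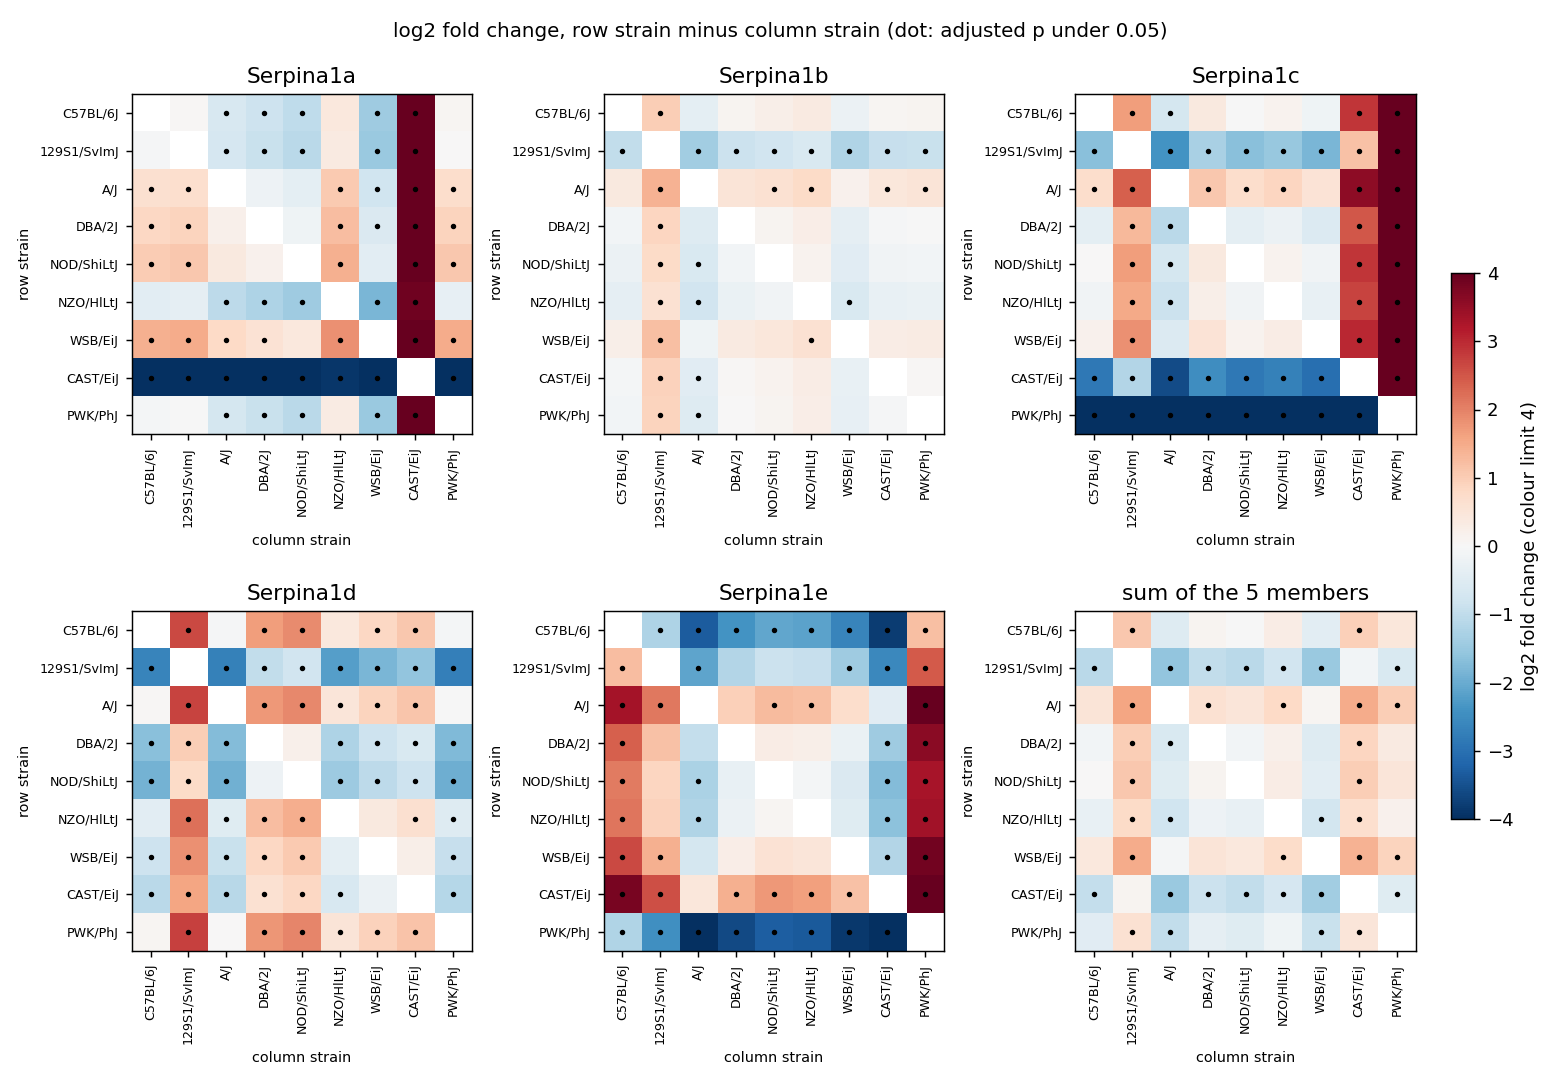
Log2 fold change of the row strain (y axis) minus the column strain (x axis) for each member and for the family sum, with colour limited at 4; dots mark an edgeR adjusted p under 0.05. Serpina1a shows a dark band for CAST/EiJ, Serpina1c one for PWK/PhJ, Serpina1b is pale except for 129S1/SvImJ, and the sum has 19 of 36 pairs dotted.

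The makeup of the family differed between strains more than between libraries of a strain. Shares of the family's counts differed among strains for all 5 members (two-sided permutation test of the F statistic, 100000 permutations, p = 1e-05 each, the smallest they can give, and 1e-05 after Benjamini-Hochberg adjustment over 5 members). The shares of 1 library sum to 100%, so the 5 tests are linked. Serpina1a made up 40.3% ± 1.49 (SD, n = 3) of the family in 129S1/SvImJ, 39.9% ± 0.778 in NOD/ShiLtJ and 39.8% ± 0.839 in WSB/EiJ, but 1.98% ± 0.101 in CAST/EiJ. Serpina1b ran from 26.6% ± 0.832 in NOD/ShiLtJ to 59.1% ± 6.11 in CAST/EiJ. For Serpina1c the ends were 0.266% ± 0.0277 in PWK/PhJ and 29.3% ± 1.34 in A/J. Serpina1d made up 6.12% ± 0.316 in NOD/ShiLtJ and 33.1% ± 1.16 in PWK/PhJ, and Serpina1e 0.249% ± 0.103 in PWK/PhJ and 11% ± 4.92 in CAST/EiJ. A/J and C57BL/6J, whose sums were 40486 and 28581 CPM, had similar shares of Serpina1a, at 22% ± 0.876 and 20.1% ± 1.56.

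Levels of different members are compared per kilobase of main transcript. On that scale Serpina1a led in WSB/EiJ, NOD/ShiLtJ, DBA/2J and 129S1/SvImJ, with 11211 ± 582 CPM per kilobase in WSB/EiJ (SD, n = 3). Serpina1b led in C57BL/6J, CAST/EiJ and PWK/PhJ, with 6421 ± 292 in C57BL/6J. In A/J, Serpina1c with 8766 ± 2517 and Serpina1b with 8414 ± 1808 CPM per kilobase lay within each other's spread, as did Serpina1b with 4966 ± 332 and Serpina1c with 4845 ± 465 in NZO/HlLtJ. By mean, Serpina1e was the lowest of the 5 in every strain except CAST/EiJ. In CAST/EiJ it was above Serpina1a, at 1309 ± 823 against 213 ± 38.6. Its mean there was also above that of Serpina1c, at 740.4 ± 159, but the spreads of these 2 overlapped. In PWK/PhJ, Serpina1e and Serpina1c were within each other's spread, at 40.4 ± 20 and 40.6 ± 8.72.

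Within a strain, the members moved together from library to library. The Pearson correlation of log2 CPM after removing strain means lay between 0.444 (Serpina1b with Serpina1e) and 0.916 (Serpina1a with Serpina1c) over 27 libraries, and between 0.304 and 0.875 over 24 libraries without A/J, whose replicate 3 was high in all 5 members. Across the 9 strain means the same pairs ran from -0.27 (Serpina1d with Serpina1e) to 0.69 (Serpina1b with Serpina1d). These are descriptions, and the points share libraries, depth and reads that match several members.

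Counts were also assigned to Gm8893 (ENSMUSG00000090555), annotated as an unprocessed pseudogene at chr12:103817856-103822243 (GRCm38), inside the annotated span of Serpina1b. It was singled out after its values were seen. It held 1827, 1703 and 2185 CPM in WSB/EiJ, 1556, 1731 and 1618 in NOD/ShiLtJ and 1159, 1016 and 901 in DBA/2J. CAST/EiJ averaged 414 CPM and 129S1/SvImJ 411, while A/J, C57BL/6J, NZO/HlLtJ and PWK/PhJ averaged 56.6, 32.2, 24.3 and 12.2. The libraries of the first 5 strains all lay above those of the last 4. The range of means was 156-fold (edgeR adjusted p = 1.19e-17), and 32 of 36 pairs differed, where 23.4% of all tests did. Its values too were not whole in 27 of 27 libraries, and its transcript shares 75-base windows with every member. It shares 28.3% of those of Serpina1a, 23.0% of Serpina1c, 16.7% of Serpina1d, 16.1% of Serpina1b and 12.9% of Serpina1e. The 4 strains with the highest Serpina1d means were the 4 with the lowest Gm8893 means, and the Pearson correlation of log2 strain means was -0.74 over 9 strains, against 0.14 with Serpina1a. Correlations with the other members were not computed. The remaining pseudogenes of the cluster reached at most 5 counts in a library. With Gm8893 added to the sum, 18 of 36 pairs differed in place of 19.

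**Figure D5:**
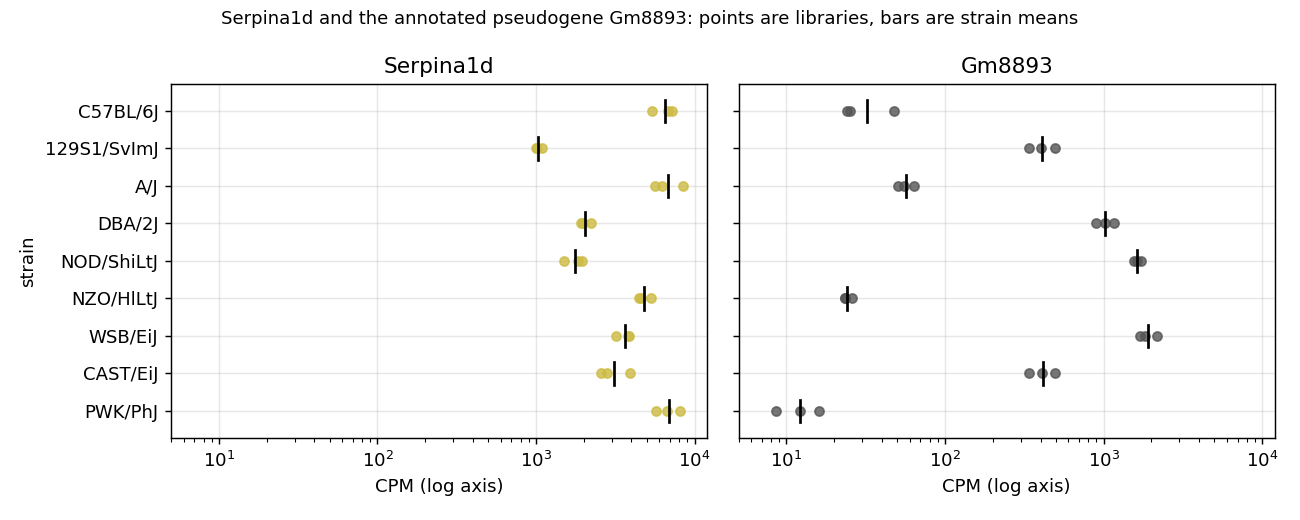
CPM of Serpina1d and of the annotated pseudogene Gm8893 (x axes, log scale) in each library (points) with strain means (bars), by strain (y axis). Gm8893 is at 56.6 CPM or lower in the means of A/J, C57BL/6J, NZO/HlLtJ and PWK/PhJ, which have the highest Serpina1d means, and at 411 or higher in the other 5.

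Relatives of the family in clade A of the serpins varied as well. Of 19 others, 16 were tested and 15 were called among strains, with a median log2 range of strain means of 1.95, beside 74.2% and 0.95 over all tested genes. The median log2 range of the 5 Serpina1 members was 5.00. Serpina3k, the most abundant relative, ran from 4402 CPM in 129S1/SvImJ to 15585 in WSB/EiJ. Serpina3c had the widest range, from 0.488 CPM in PWK/PhJ to 399 in WSB/EiJ. WSB/EiJ also had the highest mean of Serpina3m, 2648 CPM against 276 in PWK/PhJ, and of Serpina3n, 1409 against 349.99 in NZO/HlLtJ. Serpina6, which encodes corticosteroid-binding globulin and lies near the cluster, ran from 379 CPM in NOD/ShiLtJ to 898 in WSB/EiJ, and Serpina10, the protein Z-dependent inhibitor on the same side, from 216 in 129S1/SvImJ to 372 in WSB/EiJ. Serpina11, the next gene beyond Serpina1e, ran from 56.7 CPM in NZO/HlLtJ to 404 in NOD/ShiLtJ. Serpina7, which encodes thyroxine-binding globulin, was highest in A/J at 49.1 CPM and lowest in WSB/EiJ at 4.28. The least abundant of those above a mean of 1 CPM were Serpina3g, from 0.656 CPM in WSB/EiJ to 7.74 in CAST/EiJ, and Serpina12, which encodes the adipokine vaspin, from 0.848 in CAST/EiJ to 6.37 in NZO/HlLtJ.

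Other protease inhibitors that the liver secretes were called in 15 of 15 tested genes, with a median log2 range of 1.21, beside 74.2% and 0.95 over all tested genes. Mug2 and Mug1, murinoglobulins that trap proteases, had the widest ranges (4.24 and 2.69), and Ambp, the bikunin precursor, the narrowest (0.71). Of a list of proteases of neutrophils and plasma, 3 passed the filter on low counts and all 3 were called, where 74.2% of all tested genes were: the metalloproteinase gene Mmp9 (1.39), the prothrombin gene F2 (1.14) and the plasminogen gene Plg (0.93). Elane, which encodes neutrophil elastase, was at 0 in 14 of 27 libraries and averaged at most 0.0664 CPM in a strain.

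Of 12 transcription factors of the Serpina1 promoter, all tested, 7 were called, and their median log2 range of strain means was 0.73, beside 74.2% and 0.95 over all tested genes. Onecut1 (2.74) and Cebpb (2.31) had the widest ranges and Foxa1 (0.53) the narrowest. Of the interleukin 6 signalling genes, 5 of 6 tested were called, near the 74.2% over all tested genes. Socs3, which was not called (edgeR adjusted p = 0.0655), and the receptor gene Il6ra (1.47, adjusted p = 0.0039) had the widest ranges and Jak1 (0.56) the narrowest. All 16 acute phase genes were called, with a median log2 range of 2.01 beside the same 74.2% and 0.95, led by Lcn2 (8.03) and Orm3 (5.54), with Crp (1.07) lowest.

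The path that exports alpha-1 antitrypsin or disposes of its misfolded form was called in 20 of 22 genes, beside 74.2% over all tested genes, and its median log2 range of 0.98 was close to their 0.95. Derl3, a component of the channel for misfolded proteins, had the widest range (3.07), from 0.55 CPM in 129S1/SvImJ to 8.29 in WSB/EiJ. Hspa5, the chaperone BiP, ran from 423 CPM in 129S1/SvImJ to 1141 in C57BL/6J (1.43). Tfeb, a regulator of autophagy, was narrowest (0.38) and was not called (edgeR adjusted p = 0.516). Among the marker lists, 8 of 10 hepatocyte, 11 of 11 Kupffer cell, 9 of 10 endothelial, 7 of 10 stellate cell, 1 of 2 neutrophil, 0 of 1 lymphocyte and 3 of 5 erythroid markers tested were called, where 74.2% of all tested genes were.

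The genes whose strain means were most like those of the family were named by Pearson correlation of log2 CPM over 9 strains, as a description. For the sum they were Tmx2 (0.96), Slc35b2 (0.96), Zdhhc16 (0.96), Atraid (0.96) and Usp37 (0.95). Tmem234 (0.98), Psg23 (0.96) and Dpm3 (0.96) came closest to Serpina1a, and Tmem161b (0.97), Lrpap1 (0.95) and Sar1a (0.95) to Serpina1b. Orm1, which encodes the acute phase protein orosomucoid and was likewise lowest in PWK/PhJ, at 40.5 CPM, came closest to Serpina1c (0.98), before Gm38357 (0.97) and Gm28048 (0.96). Arl4c (0.93), Cd300lf (0.93) and BC028528 (0.92) followed Serpina1d, all at a mean under 1 CPM. Tyw3 (0.94), Ugt2b1 (0.94) and Rnf126 (0.92) followed Serpina1e. Each correlation rests on 9 points and was picked among the highest of the tested genes outside the family with a symbol. It therefore carries no test.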

How the data were processed

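Each value, as deposited by the authors, is an estimated count (expected count) of reads for an Ensembl gene in 1 of 27 libraries, not scaled to depth. Polyadenylated RNA had been made into TruSeq libraries, per the labels' protocols. The submitters' processing notes name the builds GRCm38 and mm10 and the tools FastQC 0.11.5 and DESeq2, with no role given; aligner, counting program, annotation release and use of strand are not given in the sources used here. Symbols from GENCODE M21 named 42462 of 43346 genes.

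Estimated counts were rounded, which changed library totals by at most 0.00026%. In R 4.3.3, edgeR 4.0.16 (with limma 3.58.1) fitted all 27 libraries with strain as the only factor, after filterByExpr by strain (14482 genes, all 5 members among them) and TMM scaling. Quasi-likelihood F tests gave any difference among strains and all 36 contrasts, adjusted by Benjamini-Hochberg over all tested genes and called under 0.05. A second fit held the 5 members as 1 summed row. The script was tested on simulated data. Log2 ranges of strain means used a pseudocount of 0.5 CPM; for correlations the prior count was 2.

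Transcript windows and identities came from GENCODE M21 on GRCm38, promoters from RefSeq on GRCm38.p6. Members held 783 estimated counts or more in every library, and these can include reads shared with other genes.

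The members, gene lists and tests were chosen with earlier results of these data known. Named were the 5 members, Serpina1f, clade A serpins averaging at least 1 CPM, the 5 genes most like the sum and 3 most like each member, and from each other list the 2 widest and the narrowest ranges; for marker lists counts are given. Gm8893, Elane and the genes most like Serpina1e within strains were added after their values were seen. A gene of the transcription factor list is not reported here by name. Alternatives were DESeq2 1.42.0, median-of-ratios scaling, other low-count filters, unrounded counts, members left out of library size, a replicate block, pairwise fits, other forms of the family share, Gm8893 in the sum and library size without TMM (both chosen after seeing the data) and each library left out. The symbol Klkb1 was not matched.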

Additional observations from a re-analysis of the deposited data

How the results depend on the processing

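All 5 members stayed called among strains, and all 5 shares stayed called, under every alternative run, and no contrast with C57BL/6J that was called changed direction. Over all alternatives, called pairs of the members ran from 104 to 127 (117 as reported), those with C57BL/6J from 19 to 26 (23), and pairs of the family sum from 13, with no filter on low counts, to 26, with DESeq2 (19). The adjusted p of the family sum ran from 9.9e-36 with DESeq2 to 2.76e-05 with the replicate block. Leaving out each library in turn gave 110 to 119, 19 to 23 and 15 to 20 pairs and an adjusted p of 5.6e-07 to 6.51e-06 for the sum. Among single contrasts with C57BL/6J, A/J lost its call in Serpina1a and Serpina1c in 7 alternatives each (adjusted p 0.0538 to 0.188 and 0.055 to 0.237), among them no low-count filter, the fit on the 6 libraries of the pair, A/J replicate 3 left out and the replicate block. The contrast of DBA/2J in Serpina1a was lost in the pairwise fit (0.0656). DESeq2 added calls for NZO/HlLtJ in Serpina1a (0.0137), Serpina1b (0.0271) and Serpina1d (0.0415) and for A/J (0.0169), WSB/EiJ (0.0425) and PWK/PhJ (0.0162) in the sum. Other alternatives added calls too: NZO/HlLtJ in Serpina1d without C57BL/6J replicate 1 (0.0444), and PWK/PhJ in the sum without A/J replicate 3 (0.0497) or without PWK/PhJ replicate 1. The causes were not tested. Leaving out TMM factors, an alternative chosen after seeing the data, gave 26.8% of all gene-by-pair tests called in place of 23.4%; the other gene lists were not refitted on that scale. Libraries with the same replicate number in different strains were hardly alike. Over 76 such pairs the median correlation of deviations from strain means was 0.0232 (-0.293 to 0.275). Over 248 pairs with other numbers it was -0.00458 (-0.469 to 0.338). A small median cannot show that no batch was shared. With the number as a block, 112 pairs of the members, 21 with C57BL/6J and 16 of the family sum were called. The effect of depth was not tested, and the division of reads between near-identical members could not be checked from counts alone.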
